A study of Mus musculus with 7 samples.

Results

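The genes described here serve protein folding in the endoplasmic reticulum (ER), the disposal of misfolded proteins from it, and the unfolded protein response that adjusts both. They are 32 listed genes, matched by symbol in the deposited expression table, out of 54532 genes in all. Each of the 32 had 1 entry, and all 32 passed the filter on low counts. Their mRNA was read by sequencing of cells that had been sorted by fluorescence out of the olfactory epithelia of young mice. The OMP-GFP line gave mature olfactory sensory neurons at postnatal days 2, 7 and 16 (libraries P2, P7 and P16; n = 3), and the Neurog1-GFP line gave intermediate progenitor cells at days 3, 7, 9 and 16 (P3, P7, P9 and P16; n = 4). Wherever the values of single libraries are listed, they stand in this order of age. The design text of the series speaks of pooled cells, and the labels name no agent. Each age is 1 library per population, and nothing states that the libraries came from separate animals, so every p-value rests on how these 7 libraries spread. Each line carries green fluorescent protein (GFP) under the name of a different gene, so population and mouse line coincide and cannot be told apart, and the labels state neither how GFP was inserted nor the sex of the animals.

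Proteins bound for the cell surface enter the ER through the Sec61 channel and are folded there by chaperones, lectins and disulfide isomerases. Proteins that fail to fold are drawn back to the cytosol and degraded. Unfolded protein is sensed by 3 membrane proteins, Ire1 (gene Ern1), Atf6 and Perk (gene Eif2ak3). Ire1 splices the mRNA of the transcription factor Xbp1, Atf6 is cut to release a transcription factor, and Perk phosphorylates the initiation factor eIF2 alpha, which slows translation while raising that of Atf4. In olfactory sensory neurons the Perk branch is known for a further role, since newly made odorant receptor protein engages it and raises translation of Atf5, which takes part in the stabilization of receptor choice. The tables give gene totals, so the spliced and unspliced forms of Xbp1 mRNA and the phosphorylated or cut forms of the sensors were not analysed here.

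Promoter sequence was examined because several of these genes are textbook targets of one element. The ER stress element, which is CCAAT, 9 free bases and CCACG, binds the factor NF-Y at its CCAAT part and Atf6 or spliced Xbp1 at its CCACG part. RefSeq promoter windows (build GRCm38.p6; 250 bases before to 50 after the annotated start) were matched for 27 of the 32 genes. Atf6, Derl1, Hyou1, Manf and Ppp1r15b were not matched. On either strand, exact copies of the element were found in 9 of these 27 genes, against 0.119% of all 32851 windows. They lie 65 bases upstream of the start in Hspa5, 44 in Syvn1, 98 in Pdia6, 105 in Dnajc3, 126 in Creld2, 145 in Canx, 156 in Derl3 and 162 in Calr, counted to the first base of the copy, and Hsp90b1 holds a pair at 212 and 107 bases. The stretches below show the copies in capitals with 20 bases on each side, in the direction of the gene, so that copies on the opposite strand read CGTGG to ATTGG. GENCODE M21 (GRCm38) places none of these stretches in an exon; for Hspa5, whose stretch overlaps an exon of the gene, only the element itself (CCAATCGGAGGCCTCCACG) is given.
Syvn1 (chr19:6046512-6046570, plus strand): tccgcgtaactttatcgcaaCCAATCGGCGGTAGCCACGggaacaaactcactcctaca
Pdia6 (chr12:17266471-17266529, plus strand): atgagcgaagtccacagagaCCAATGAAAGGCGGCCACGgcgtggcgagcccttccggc
Dnajc3 (chr14:118937807-118937865, plus strand): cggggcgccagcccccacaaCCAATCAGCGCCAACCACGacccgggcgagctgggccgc
Creld2 (chr15:88819500-88819558, plus strand): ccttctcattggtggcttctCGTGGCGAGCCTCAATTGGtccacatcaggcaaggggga
Canx (chr11:50325780-50325838, minus strand): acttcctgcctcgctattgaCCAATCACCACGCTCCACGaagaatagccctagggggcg
Derl3 (chr10:75893222-75893280, plus strand): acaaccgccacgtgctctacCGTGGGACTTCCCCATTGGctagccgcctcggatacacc
Calr (chr8:84847055-84847113, minus strand): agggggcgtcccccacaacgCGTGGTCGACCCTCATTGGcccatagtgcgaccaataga
Hsp90b1 (chr10:86705618-86705676, minus strand): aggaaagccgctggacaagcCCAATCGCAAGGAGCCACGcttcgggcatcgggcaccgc
Hsp90b1 (chr10:86705513-86705571, minus strand): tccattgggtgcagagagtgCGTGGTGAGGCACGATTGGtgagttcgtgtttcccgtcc

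A second arrangement, ATTGG, 1 free base and CCACG, was found in 2 genes, Herpud1 and Dnajb11, and in 0.0365% of all windows. In Dnajb11 it is ATTGGCCCACG, 7 bases after the start. In Herpud1 it lies 52 bases before the start, inside the gene Gm15890 but in none of its exons, and is shown in capitals.
Herpud1 (chr8:94386357-94386407, plus strand): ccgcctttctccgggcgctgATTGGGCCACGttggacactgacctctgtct
The unfolded protein response element TGACGTGG was found in 0 of the members' windows and in 0.676% of all, the Atf4-type element TGATGNAAN in Herpud1 alone and in 3.95% of all, and the cyclic AMP response element TGACGTCA in Ppp1r15a alone and in 1.79% of all. A match is a description of the letters, not of binding, and both strands were searched for each.

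Between 24203965 and 25930727 counts on genes were recorded per library. The labels were checked against markers. Of 10 neuronal progenitor markers, 10 were lower in mature neurons (edgeR quasi-likelihood test), with Neurog1 at 0.840 to 1.85 TPM in mature neurons and 292 to 698 TPM in progenitors, and 11 of 12 mature neuron markers were higher, the exception being Omp itself, at 1066 to 1630.5 TPM in mature neurons and 1323 to 2371 TPM in progenitors. The 12 mature neuron markers summed to 19481 to 27591 CPM in mature neurons and 6871 to 10175 CPM in progenitors. Transcripts of mature neurons were thus also read in the progenitor libraries. Dividing-cell markers summed to 31.8 to 73.9 CPM in mature neurons and 339 to 603 CPM in progenitors. Immature neuron markers summed to 1704 to 2529 CPM in mature neurons and 7148 to 8265 CPM in progenitors, with 6 of 7 lower in mature neurons, beside 1329.7 to 1608 CPM in mature neurons and 5050.1 to 6141 CPM in progenitors for the progenitor markers. Immature neuron markers thus move with population. Their part in each population difference below was not tested, nor was that of mature neuron transcripts in the progenitor libraries. Every marker of other cell types had at least 1 count in some library. Horizontal basal cell markers summed to 8.13 to 17.8 CPM in mature neurons and 11.3 to 13.5 CPM in progenitors, and 0 of 5 were called. Supporting (sustentacular) cell markers summed to 3887 to 4319 CPM in mature neurons and 2135 to 3178 CPM in progenitors, with 5 of 12 called higher and 0 lower. Ensheathing glia markers summed to 49.5 to 81.2 CPM in mature neurons and 95.2 to 103 CPM in progenitors, though 5 of 7 were called higher and 1 lower. Bowman gland markers summed to 1110.0 CPM in the P16 mature neuron library and to between 70.3 and 263 CPM in the other 6. Leukocyte markers summed to 121 CPM there and to between 9.04 and 40.9 CPM elsewhere. Erythroid markers summed to 288 CPM there and 17.4 to 124 CPM elsewhere, and endothelial and fibroblast markers to 376 CPM there and 85.5 to 203 CPM elsewhere. The part of these cells in the results below was not tested, apart from fits without that library. In sorted pools, fewer cells of a type and less RNA per cell cannot be told apart.

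Transcripts of the ER genes were abundant in both populations. On the TPM scale, an abundance corrected for transcript length, the 32 genes summed to 4962, 5064 and 4490.1 TPM in mature neurons and to 5378, 5304, 5321 and 5146 TPM in progenitors. All 4 progenitor sums were above all 3 mature neuron sums. The median log2 fold over all genes, mature neuron over progenitor, was also negative on log2(TPM + 1), at -0.10. The order of the sums was therefore not shown to be particular to these genes. Hsp90b1, the ER member of the Hsp90 family, ranked first among the 32 in both populations, with means of 606 TPM ± 1.08 in mature neurons (SD, n = 3) and 598 TPM ± 41.1 in progenitors (SD, n = 4). Calr, the lectin chaperone calreticulin, ranked second in both. The third place was held by Ppp1r15a in mature neurons and by Pdia3 in progenitors. At the other end stood Ern1, between 5.43 and 10.1 TPM, and Derl3, between 0.17 and 2.43 TPM. Dnajb9 moved the most places, from rank 16 in progenitors to rank 9 in mature neurons.

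**Figure D1:**
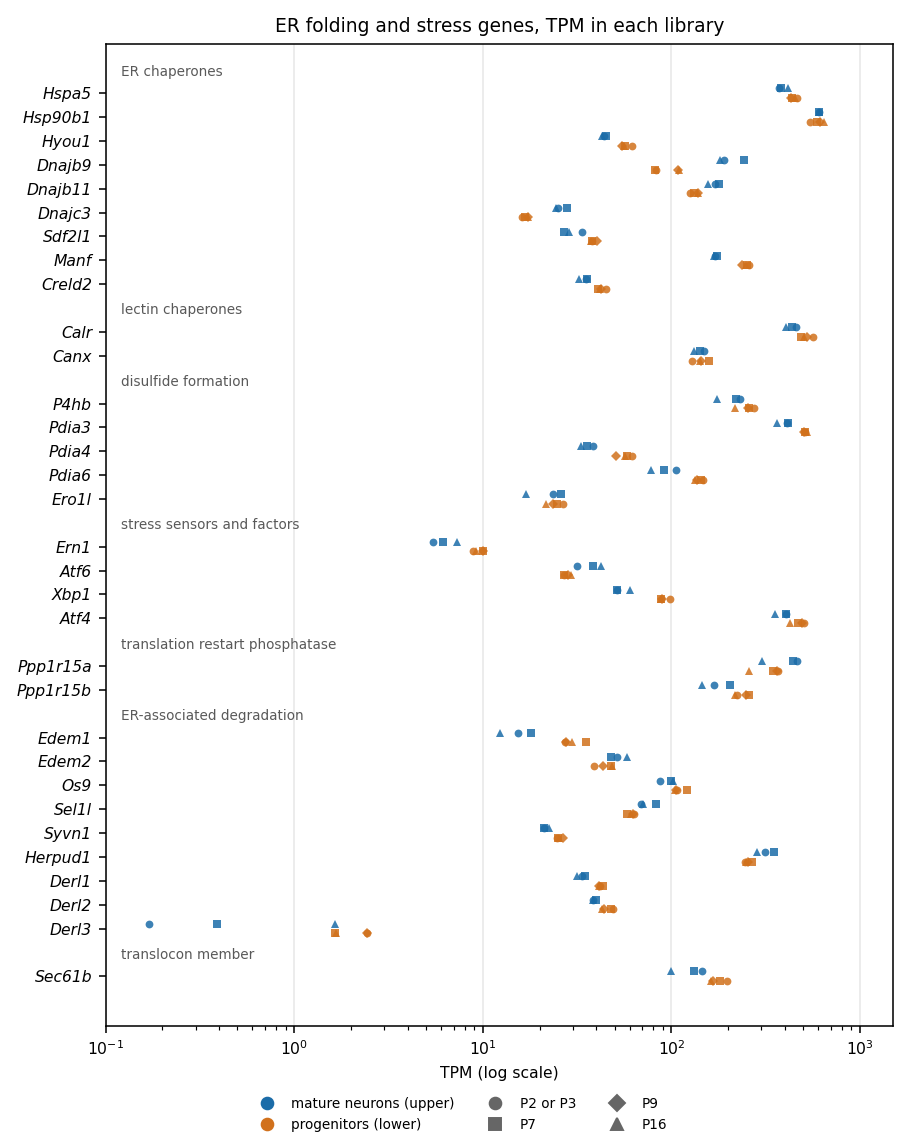
Level of each of the 32 ER genes in TPM (log scale) in every library, grouped by role; blue points are mature neuron libraries, orange points progenitor libraries, and the shape gives the age. Hsp90b1 and Calr lie at the top and Derl3 alone lies near or below 2 TPM.

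The comparison of the populations asked which of these genes distinguish mature neurons from their progenitors. The genes did not move as one group. In mature neurons 8 of the 32 were called higher (Dnajb9, Dnajb11, Dnajc3, Atf6, Ppp1r15a, Edem2, Sel1l and Herpud1) and 12 were called lower (Hyou1, Manf, Pdia3, Pdia4, Pdia6, Ern1, Xbp1, Ppp1r15b, Edem1, Derl1, Derl2 and Derl3). The other 12, among them Hspa5, Hsp90b1, Calr, Canx and Atf4, did not pass the test. Dnajb9 rose 2.23-fold and Derl3 fell 2.81-fold; every other called member differed by less than 1 log2 unit. Of the 8 and 12 calls, 6 and 7 were kept in all 15 alternative settings. The reads of 9 members may be mixed with those of a gene on the opposite strand whose exons overlap theirs (Hsp90b1, Dnajb9, Manf, Pdia3, Pdia6, Ppp1r15a, Ppp1r15b, Syvn1 and Derl2), because no source gives the strand setting of the counting. Exons of Hsp90b1 (Gm15344 and Gm25745), Manf (Rbm15b) and Pdia4 (Mir704) also overlap those of genes on the same strand, which no strand setting separates.

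These shares stand beside a background in which 28.8% of 17975 tested genes were called higher and 30.0% lower, 58.8% in either direction (edgeR quasi-likelihood test, Benjamini-Hochberg adjusted p under 0.05). With 25.0% of the members called higher and 37.5% lower, the shares of calls on counts lie near those of all genes. The median log2 fold of the 32, mature neuron over progenitor, was -0.15, beside 0.01 over all tested genes. In CPM (counts scaled to library size with TMM factors) 23 of the 32 genes showed no overlap of the populations, beside 61.4% of all tested genes. The scale matters for the weaker differences. On log2(TPM + 1) with limma the median over all genes moved to -0.10 and that of the members to -0.26, and 6 members were called higher and 19 lower, where 22.8% and 34.8% of 16869 genes were. The share of members called lower was thus above that of all genes on TPM, and not near it as on counts. As the members were chosen with earlier results of these data known, this is a description and not a test. Canx was the only member whose fold changed sign with the scale (log2 fold 0.11 on counts and -0.02 on TPM), and 7 of the 12 members not called on counts (Hspa5, Sdf2l1, Creld2, Calr, Atf4, Syvn1 and Sec61b) were called lower on TPM. The TPM folds of single genes given below are not adjusted for the median of -0.10 over all genes. The share of all genes without overlap in TPM is not given here.

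**Figure D2:**
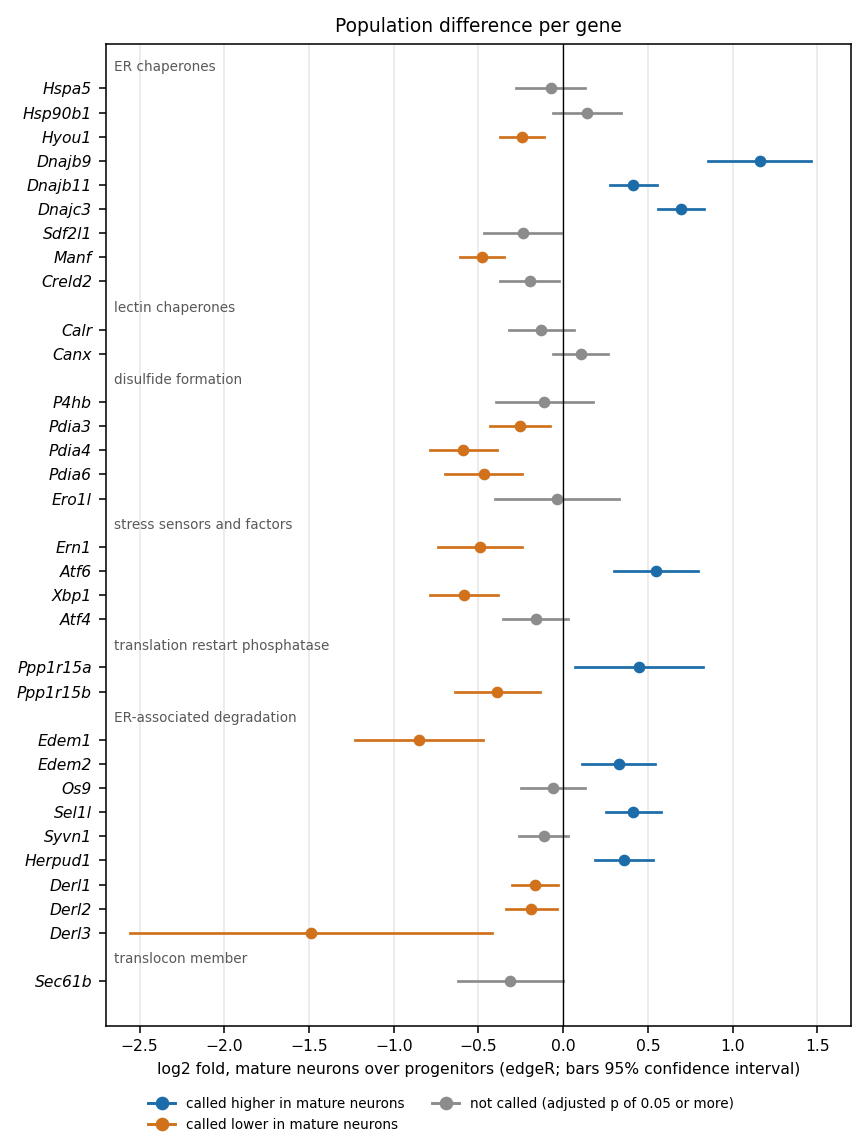
Log2 fold of each ER gene, mature neurons over progenitors, with its 95% confidence interval from edgeR; blue marks genes called higher in mature neurons, orange genes called lower and grey genes not called. Calls of both colours occur among the chaperones, the sensors, the phosphatase subunits and the degradation genes, while the called disulfide isomerases are all lower.

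Among the ER chaperones, the listed J-domain partners of the Hsp70 chaperone BiP rose while BiP itself was not called on counts. The difference between BiP and these partners was not tested. Hspa5, which encodes BiP, stood at 369.8, 380.0 and 415 TPM in mature neurons and at 461, 434, 429 and 452 TPM in progenitors. Its log2 fold was -0.07 (95% interval -0.28 to 0.13, edgeR adjusted p = 0.503), and the populations overlapped in CPM. In TPM they did not overlap, and limma called Hspa5 lower on log2(TPM + 1) (-0.19, adjusted p = 0.0313). Dnajb9 (ERdj4), a J-domain cochaperone that also represses Ire1, stood at 191, 241 and 180.3 TPM in mature neurons and at 82.6, 82.0, 109 and 109.9 TPM in progenitors. All 3 mature neuron values lay above all 4 progenitor values, and the log2 fold was 1.16 (SE 0.13, adjusted p = 0.000158). It was called under all 15 alternative settings. Dnajc3 (p58IPK), a J-domain protein that holds unfolded clients, stood at 24.9, 28.0 and 24.6 TPM in mature neurons and at 16.1, 16.6, 17.3 and 17.4 TPM in progenitors. Again the populations did not overlap, with a log2 fold of 0.70 (SE 0.06, adjusted p = 3.69e-05). Dnajb11 (ERdj3), which passes clients to BiP, stood at 171, 179 and 157 TPM in mature neurons and at 125, 132, 138 and 139 TPM in progenitors, also without overlap. Its log2 fold was 0.41 (SE 0.06, adjusted p = 0.000561).

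The other chaperones and their partners were lower in mature neurons or not called. Manf, a small secreted ER protein that binds BiP, stood at 169, 174 and 168 TPM in mature neurons and at 258, 251, 237 and 249 TPM in progenitors. The populations did not overlap, with a log2 fold of -0.48 (SE 0.06, adjusted p = 0.000196), called under every alternative. Hyou1, a large Hsp70-like nucleotide exchange factor of BiP, stood at 43.0 to 45.1 TPM in mature neurons and 54.8 to 62.1 TPM in progenitors, with a log2 fold of -0.24 (SE 0.06, adjusted p = 0.0064); the call was lost in the blocked fit, which keeps the ages common to both populations (P7, P16) and blocks on age (adjusted p = 0.0754). Sdf2l1, a partner of Dnajb11, stood at 27.1 to 33.5 TPM in mature neurons and 37.5 to 40.4 TPM in progenitors and was not called (log2 fold -0.24, adjusted p = 0.0682). Creld2, a secreted ER stress protein, ranged over 32.4 to 35.8 TPM in mature neurons and 40.7 to 44.7 TPM in progenitors and was not called either (-0.20, adjusted p = 0.0504). The populations did not overlap for either gene, and limma called both lower on log2(TPM + 1) (-0.37 and -0.29). Sdf2l1 was also called without the P2 mature neuron library (edgeR adjusted p = 0.032) and Creld2 by DESeq2 (0.0374), with age as a covariate (0.0397) and without the P7 progenitor library (0.0497). Hsp90b1 stood at 605 to 607 TPM in mature neurons and 546 to 644 TPM in progenitors (log2 fold 0.14, 95% interval -0.06 to 0.34). Summed over the 9 chaperone genes, the level was 1644 to 1715 TPM in mature neurons and 1633 to 1747 TPM in progenitors, so the totals overlapped.

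The balance between these genes can be read within each library as a ratio of TPM values, which no scaling between libraries can move. Dnajb9 over Hspa5 was 0.516, 0.635 and 0.434 in mature neurons and 0.179, 0.189, 0.253 and 0.243 in progenitors. Dnajc3 over Hspa5 was 0.0592 to 0.0736 in mature neurons and 0.0349 to 0.0403 in progenitors, and Dnajb11 over Hspa5 was 0.378 to 0.472 and 0.270 to 0.321. These ratios restate the levels above: in TPM, Hspa5 was lower and each of the 3 partners higher in every mature neuron library, so no overlap could occur.

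**Figure D3:**
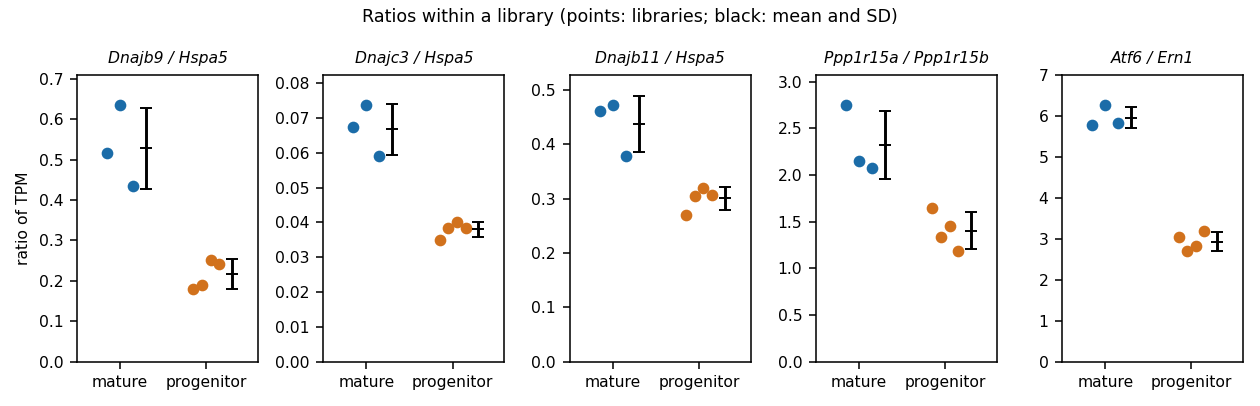
Ratios of TPM within a library for 5 pairs of ER genes; points are libraries (blue mature neurons, orange progenitors), and black marks give the mean and SD of a population. In each pair the 3 mature neuron ratios lie above the 4 progenitor ratios, for instance 0.434 to 0.635 against 0.179 to 0.253 for Dnajb9 over Hspa5.

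Of the 4 disulfide isomerases, 3 were lower in mature neurons, and none of the 5 genes of disulfide formation was called higher. Pdia4 (ERp72) stood at 38.3, 35.6 and 33.2 TPM in mature neurons and at 62.0, 58.4, 51.0 and 57.0 TPM in progenitors. The populations did not overlap, and the log2 fold was -0.59 (SE 0.09, adjusted p = 0.000544). Pdia6, another isomerase, stood at 105, 91.0 and 78.0 TPM in mature neurons and at 148, 143, 137 and 134 TPM in progenitors, with a log2 fold of -0.47 (SE 0.10, adjusted p = 0.00373) and no overlap. Pdia3 (ERp57), the isomerase that works with calnexin and calreticulin, was the most abundant of the group, at 409, 417 and 361 TPM in mature neurons and at 513, 512, 506 and 525 TPM in progenitors. Its log2 fold of -0.25 (SE 0.08, adjusted p = 0.0199) was called in 14 of 15 alternatives and lost without the P16 mature neuron library (adjusted p = 0.055). P4hb, the founding protein disulfide isomerase, stood at 174 to 232 TPM in mature neurons and 218 to 274 TPM in progenitors (log2 fold -0.11, 95% interval -0.40 to 0.18). Ero1l, the oxidase that recharges the isomerases, stood at 16.9 to 25.8 TPM in mature neurons and 21.6 to 26.6 TPM in progenitors (-0.04, 95% interval -0.40 to 0.33). Neither was called, and the populations overlapped for both. Summed over the 5 genes, the group stood at 664 to 808 TPM in mature neurons and 956 to 1024 TPM in progenitors, without overlap.

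The lectin chaperones, which hold glycoproteins while their sugars are trimmed, were not called. Calr stood at 458, 438 and 408 TPM in mature neurons and at 565, 485, 521 and 506 TPM in progenitors, with a log2 fold of -0.13 (95% interval -0.32 to 0.06). On TPM the populations did not overlap and limma called it lower (-0.26, adjusted p = 0.0186), while in CPM they overlapped. Canx, the membrane-bound calnexin, stood at 132 to 149 TPM in mature neurons and 129 to 158 TPM in progenitors, with overlap on both scales (log2 fold 0.11, 95% interval -0.06 to 0.27).

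Of the stress sensors and their factors, Ern1 and Xbp1 fell and Atf6 rose. Ern1, the Ire1 kinase and nuclease, stood at 5.43, 6.16 and 7.29 TPM in mature neurons and at 8.90, 9.99, 10.1 and 9.22 TPM in progenitors, lower in every mature neuron library than in any progenitor library (log2 fold -0.49, SE 0.11, adjusted p = 0.00479). Xbp1, the factor whose mRNA Ire1 splices, stood at 51.2, 51.6 and 60.5 TPM in mature neurons and at 98.6, 88.0, 89.3 and 88.4 TPM in progenitors. It too fell without overlap (log2 fold -0.58, SE 0.09, adjusted p = 0.000658). Atf6, the sensor that is itself cut to a transcription factor, stood at 31.4, 38.5 and 42.5 TPM in mature neurons and at 27.0, 26.8, 28.3 and 29.4 TPM in progenitors, higher in every mature neuron library, with a log2 fold of 0.55 (SE 0.11, adjusted p = 0.00273). The calls on these 3 genes held in all 15 alternatives. Within a library, Atf6 over Ern1 was 5.78, 6.25 and 5.83 in mature neurons and 3.03, 2.69, 2.82 and 3.19 in progenitors. As the levels of both genes did not overlap and differed in opposite directions, neither could this ratio. Atf4, the factor translated when eIF2 alpha is phosphorylated, stood at 406, 406 and 353 TPM in mature neurons and at 505, 468, 490.2 and 428 TPM in progenitors and was not called (log2 fold -0.16, 95% interval -0.36 to 0.03, adjusted p = 0.13). In TPM its populations did not overlap and limma called it lower (-0.28, adjusted p = 0.0189), as did edgeR with age as a covariate (-0.18, adjusted p = 0.0447).

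The pair of phosphatase subunits that restore translation differed in direction. Ppp1r15a (GADD34), the stress-induced subunit that directs protein phosphatase 1 to eIF2 alpha, stood at 463, 441 and 301 TPM in mature neurons and at 369, 344, 363 and 259 TPM in progenitors. In each population the P16 library was the lowest, and the populations overlapped. The log2 fold was 0.45 (SE 0.16, adjusted p = 0.0433), and the call was kept in only 7 of 15 alternatives, with an adjusted p up to 0.372. It was lost in the 3 fits on TPM (log2 fold 0.25 on log2(TPM + 1)) and without the P2 or P7 mature neuron library or the P7, P9 or P16 progenitor library, where the log2 fold lay between 0.34 and 0.48. Ppp1r15b (CReP), the constitutive subunit, stood at 169, 206 and 145 TPM in mature neurons and at 224, 258, 250.1 and 219 TPM in progenitors, with a log2 fold of -0.39 (SE 0.11, adjusted p = 0.0151) that was called in all 15. Ppp1r15a over Ppp1r15b was 2.74, 2.14 and 2.07 in mature neurons and 1.65, 1.33, 1.45 and 1.18 in progenitors. The ratio thus separated the populations, although the level of Ppp1r15a overlapped. Ppp1r15b alone did not overlap in TPM, so the ratio in part restates its level.

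Genes of ER-associated degradation split within the same machinery. Edem1, a mannose-binding protein that marks misfolded glycoproteins for disposal, stood at 15.4, 18.0 and 12.3 TPM in mature neurons and at 27.1, 35.4, 27.5 and 29.9 TPM in progenitors. The highest mature neuron value was 18.0 and the lowest progenitor value 27.1 TPM, and the log2 fold was -0.85 (SE 0.17, adjusted p = 0.00246). Edem2, its relative that starts the trimming of mannose, stood at 51.6, 47.9 and 58.2 TPM in mature neurons and at 38.9, 47.6, 43.3 and 48.1 TPM in progenitors. In CPM the populations did not overlap and the log2 fold was 0.33 (SE 0.09, adjusted p = 0.017), but on TPM they overlapped and limma did not call it (0.24, adjusted p = 0.0742). The call was also lost without the P9 progenitor library (adjusted p = 0.0531) and in the blocked fit (0.0658). Edem1 over Edem2 was 0.212 to 0.376 in mature neurons and 0.621 to 0.745 in progenitors. As Edem1 alone did not overlap, this ratio in part restates its level.

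Of the ubiquitin ligase complex that sits in the ER membrane, 2 of 4 listed parts rose. Sel1l, the adaptor of the ligase, stood at 68.9, 82.8 and 70.6 TPM in mature neurons and at 63.5, 58.2, 62.6 and 60.8 TPM in progenitors. The log2 fold was 0.41 (SE 0.07, adjusted p = 0.00133) with no overlap. Herpud1, a membrane protein that helps assemble the complex, was the most abundant degradation gene, at 315, 352 and 284 TPM in mature neurons and at 244, 268, 256 and 249 TPM in progenitors, with a log2 fold of 0.36 (SE 0.08, adjusted p = 0.00365) and no overlap. Both were called in all 15 alternatives. Syvn1 (Hrd1), the ligase itself, stood at 21.0 to 22.5 TPM in mature neurons and 24.8 to 26.6 TPM in progenitors (log2 fold -0.11, 95% interval -0.26 to 0.03), and Os9, a lectin that delivers clients, at 87.3 to 103 TPM in mature neurons and 104 to 121 TPM in progenitors (-0.06, 95% interval -0.25 to 0.13); neither was called.

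The derlins, membrane proteins of the exit channel, were lower in mature neurons. Derl1 stood at 31.6 to 34.8 TPM in mature neurons and 41.1 to 43.3 TPM in progenitors and Derl2 at 38.2 to 40.05 TPM in mature neurons and 42.7 to 48.8 TPM in progenitors. Their log2 folds were -0.17 (SE 0.06, adjusted p = 0.0405) and -0.19 (SE 0.07, adjusted p = 0.0354), small differences whose calls were kept in 5 and 8 of 15 alternatives, with adjusted p up to 0.196 and 0.112. Leaving out any single library lost the call on Derl1, and leaving out any except the P7 mature neuron or the P16 progenitor library lost that on Derl2. Derl3, the derlin typical of secretory cells, was the weakest member, at 0.17, 0.390 and 1.64 TPM in mature neurons and at 2.42, 1.64, 2.43 and 1.67 TPM in progenitors, which is 3, 8 and 18 counts against 31, 27, 34 and 32. In TPM the P16 mature neuron library reached the lowest progenitor values, and it is the library in which Bowman gland markers (1110.0 CPM) and plasma and B cell markers (15.997 CPM, against 2.85 to 9.62 CPM in progenitors) were highest; their part in the value was not tested. The log2 fold was -1.49 (SE 0.47, adjusted p = 0.0235), and -2.30 without the P16 mature neuron library. The call was lost without the P7 mature neuron library (adjusted p = 0.082), without the P9 progenitor library (0.0508), in the blocked fit (0.0987), and on log2(TPM + 1) with no filter (0.0615). Sec61b, a small subunit of the entry channel, stood at 145, 132 and 100.02 TPM in mature neurons and at 197, 181, 166 and 161 TPM in progenitors. On TPM the populations did not overlap and limma called it lower (-0.50), while on counts they overlapped and the log2 fold of -0.31 was not called (adjusted p = 0.0762). It was called without the P2 mature neuron library (0.0335), in the blocked fit (0.0404) and with age as a covariate (0.00597).

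Genes that share the ER stress element were called in both directions. Of the 9 with an exact copy (the stretches shown above), Dnajc3 was called higher, Pdia6 and Derl3 were called lower, and Hspa5, Hsp90b1, Calr, Canx, Creld2 and Syvn1 were not called on counts, while on TPM 4 of these 6 were lower (Hspa5, Calr, Creld2 and Syvn1). Dnajc3 and Pdia6, whose copies start 105 and 98 bases upstream, had log2 folds of 0.70 and -0.47. Both genes with the second arrangement of the element, Herpud1 and Dnajb11, were called higher (0.36 and 0.41). Dnajb9 and Edem1, the members other than Derl3 with the largest log2 folds in each direction, had no exact copy of either form in the window. Over all tested genes 28.8% were called higher and 30.0% lower on counts, and 22.8% and 34.8% on TPM. These counts are a description of the windows searched, and the calls are too few to be read as a result about the element.

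Age was compared as a slope in log2 units per doubling of the postnatal day, shared by both populations. The edgeR fit called 0 of the 32 genes and 0.00% of all tested genes. At an unadjusted p under 0.05 stood 6 of the 32, beside 20.8% of all tested genes. The slopes of the members lay between -0.18 (Ppp1r15a) and 0.37 (Derl3), and the smallest adjusted p was 0.0733 (Pdia6, slope -0.11). DESeq2 called 8.34% of all tested genes and 4 members, all falling with age: P4hb (slope -0.14), Pdia6 (-0.11), Ppp1r15a (-0.17) and Sec61b (-0.14). In these 4 genes the P16 library was the lowest of both populations. P4hb stood at 232, 220.2 and 174 TPM in mature neurons and at 274, 258, 255 and 218 TPM in progenitors. The P16 library was the lowest of both populations in 8 of the 32 genes and the highest of both in 3, Hsp90b1, Atf6 and Edem2. The share of all tested genes with either order is not given here, so these counts show nothing particular to the members. A difference of slopes between the populations was called for 0 of the 32 genes and 0.00% of all by edgeR, with 2 members beside 5.98% of all genes at an unadjusted p under 0.05, and for 0 members and 0.0334% of all genes by DESeq2. With 1 library per age and population, these tests could not separate an age from its library.

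**Figure D4:**
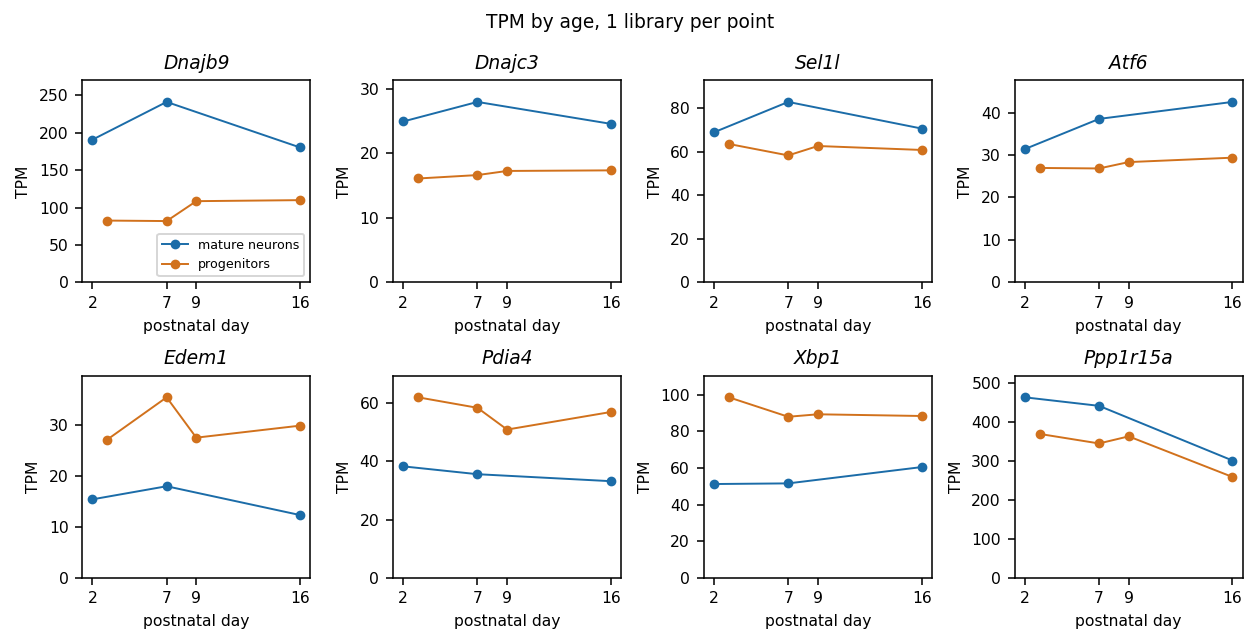
TPM of 8 ER genes by postnatal day, 1 library per point, blue for mature neurons and orange for progenitors. Dnajb9, Dnajc3, Sel1l and Atf6 lie higher in every mature neuron library than in any progenitor library and Edem1, Pdia4 and Xbp1 lower, while Ppp1r15a falls to its lowest value at P16 in both populations.

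The rest of the Perk branch gave no common direction on counts. On TPM more of its genes were called lower than higher, as was also the case over all tested genes. Of the branch and its targets, 6 of 30 rose and 8 fell (edgeR); the median log2 fold was -0.20. These shares are no higher than the 28.8% and 30.0% of all tested genes. Eif2ak3, the Perk kinase, stood at 21.0 to 25.6 TPM in mature neurons and 23.4 to 27.8 TPM in progenitors and was not called (log2 fold -0.06, 95% interval -0.23 to 0.11), and neither was Atf5 (-0.06, 95% interval -0.33 to 0.21), which was abundant at 2273 to 2392 TPM in mature neurons and 2457 to 2926 TPM in progenitors. Ddit3 (CHOP), a factor induced by Atf4, rose from 168, 194, 166 and 162 TPM in progenitors to 279.6, 256 and 192 TPM in mature neurons (log2 fold 0.59, SE 0.11, adjusted p = 0.00235). Its lowest mature neuron value, at P16, was below the P7 progenitor value. Among the genes of the list with the smallest p, Ddit4, an inhibitor of mTOR signalling, had a log2 fold of -1.12, Slc7a11, the cystine transporter, one of -1.41 at no more than 1.42 TPM, and Cebpg, a bZIP factor, one of -0.77. On log2(TPM + 1), 2 of 29 were higher and 11 lower, beside 22.8% and 34.8% of all tested genes. The median log2 fold on that scale was -0.30, beside -0.10 over all genes. Of the 3 other eIF2 alpha kinases, Eif2ak2 rose (0.87) and Eif2ak4 fell (-0.41).

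On counts, genes of related pathways outside the 32 were more often called higher than lower in mature neurons, and on TPM about equally often. Over 11 further lists, 69 of 179 genes rose and 27 fell (median log2 fold 0.15); on log2(TPM + 1), 44 of 174 were higher and 41 lower. Over all tested genes the shares were 28.8% and 30.0% on counts and 22.8% and 34.8% on TPM. The lists were chosen with earlier results of these data known, so these tallies are a description and not a test. Of the other ER chaperones and proline isomerases 9 of 20 rose and 2 fell (6 and 6 of 19 on TPM). Clgn, the calnexin relative calmegin, stood at 684, 761 and 722 TPM in mature neurons and at 263, 300.3, 332 and 334 TPM in progenitors, a log2 fold of 1.39 (SE 0.10, adjusted p = 2.32e-05). Every mature neuron value was above every progenitor value, in contrast to Canx, whose populations overlapped; the difference between the 2 genes was not tested. Dnajb14, a J-domain protein of the ER membrane, had a log2 fold of 1.55 (SE 0.11) and its relative Dnajb12 one of 0.63 (SE 0.08). Of the other isomerases and oxidases 5 of 14 rose and 1 fell (3 and 2 of 14 on TPM). Ero1lb, the second ER oxidase, stood at 13.0, 13.3 and 13.3 TPM in mature neurons and at 32.8, 33.6, 29.0 and 36.2 TPM in progenitors and fell by 1.65 on the log2 scale, while Tmx2 and Tmx3, thioredoxin-like membrane proteins, rose (0.91 and 0.99).

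In the list of the translocon and signal recognition 10 of 24 rose and 2 fell (9 and 4 of 23 on TPM, where the median log2 fold turned from 0.16 to -0.08), with Tram1, a membrane protein beside the channel, at 0.68, and the signal peptidase subunits Spcs1 at 0.73 and Sec11a at -0.71. Of the oligosaccharyltransferase list, whose products attach sugars to new proteins, 6 of 14 rose and 2 fell (4 and 3 of 14 on TPM). Dad1, a subunit of the transferase, had a log2 fold of 0.58, Magt1, another subunit, one of -0.89, and Dpagt1, which starts the sugar donor, one of -0.59. In the list of glycan trimming 5 of 10 rose and 2 fell (3 and 2 of 10 on TPM, where the median turned from 0.08 to -0.04), with Ngly1, the cytosolic enzyme that strips sugars from degraded proteins, at 0.57, Mcfd2 at 0.47 and Edem3, the third Edem protein, at 0.47.

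In the list of further degradation genes 10 of 22 rose and 5 fell (7 and 7 of 22 on TPM). Vcp, the ATPase that pulls proteins out of the membrane, stood at 319, 350.3 and 307 TPM in mature neurons and at 129, 134, 138 and 133 TPM in progenitors. The log2 fold was 2.47 on counts and 1.28 on log2(TPM + 1), and since the annotation holds a processed copy, Vcp-rs, that could share its reads, the size is uncertain. Vimp (listed as Selenos), a selenoprotein partner of Vcp, had a log2 fold of 1.27 and Bcap31, an ER membrane chaperone, one of 0.88. Of the other ER membrane transcription factors 5 of 7 rose and 1 fell (2 and 1 of 7 on TPM). Creb3l1 (OASIS), a relative of Atf6, stood at 31.1, 34.4 and 48.6 TPM in mature neurons and at 6.17, 6.97, 10.8 and 8.39 TPM in progenitors (log2 fold 2.37, SE 0.23, adjusted p = 6.58e-05), and Nfe2l2 (Nrf2), a factor of oxidative stress that is not an ER membrane protein itself, had a log2 fold of 1.57. Creb3l4 fell (-1.13). In the list of ER export 4 of 17 rose and 3 fell (3 and 4 of 15 on TPM, where the median turned from 0.01 to -0.11), with Sec24d (1.24), Sar1b (0.67) and Sec23b (0.53), parts of the vesicle coat that leaves the ER, higher. Of 18 cytosolic heat shock genes 8 rose and 0 fell (4 and 0 of 18 on TPM), among them Hspa8 (1.08), the cytosolic Hsp70, Hspa4l (0.70) and the heat shock factor Hsf1 (0.54).

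**Figure D5:**
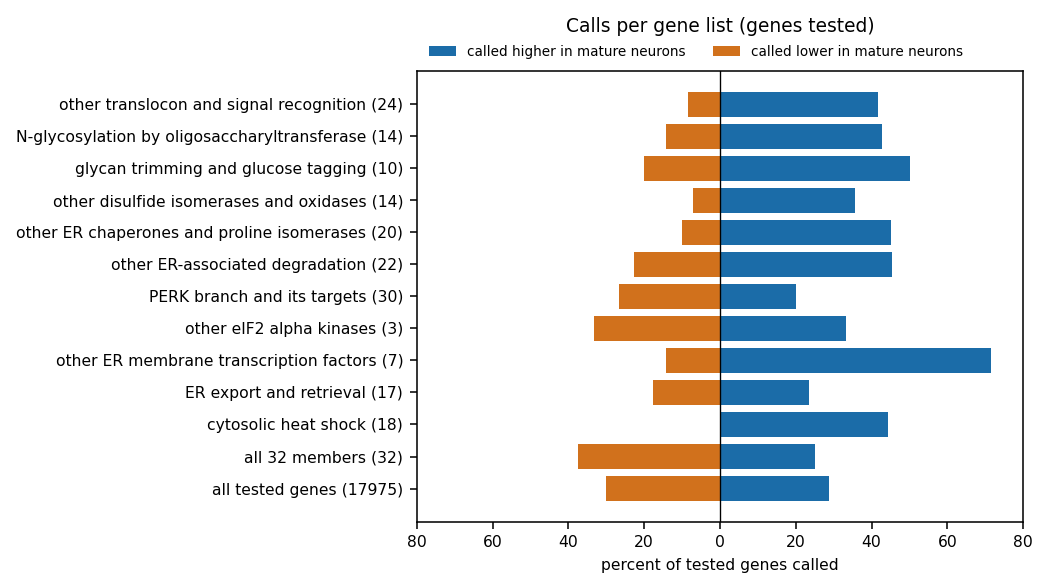
Percent of the tested genes of each list called higher (blue, to the right) or lower (orange, to the left) in mature neurons by edgeR, with the number tested in parentheses, beside the 32 ER genes and all tested genes. On counts the 32 genes show 25.0% higher and 37.5% lower, near the 28.8% and 30.0% of all tested genes, and cytosolic heat shock genes show no lower calls. The lists were chosen with earlier results of these data known.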

How the data were processed

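Poly(A) RNA of sorted cells was sequenced from TruSeq stranded libraries of TRIzol-extracted RNA, per the labels' protocols. Per the submitters' processing notes, bcl2fastq 2.18, STAR 2.6.1c and RSEM were used with build mm10. Neither the annotation release nor the strand setting is given in the sources used here. Deposited were whole-number counts per gene and RSEM abundances in TPM. Entries of the count table that name no gene held 23.5 to 27.2% of all counts per library and were left out.

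Counts were tested with edgeR 4.0.16 (R 4.3.3) by its quasi-likelihood test after TMM scaling and filterByExpr, with Benjamini-Hochberg adjustment over 17975 genes at 0.05. All 7 libraries entered each fit, which left 5 residual degrees of freedom for the population difference, 4 for the age slope on log2 postnatal day and 3 for the difference of slopes. TPM served for levels, for ratios and, as log2(TPM + 1), for limma 3.58.1 on genes with a mean of at least 1 TPM. Fold changes on that scale understate those of low genes. DESeq2 1.42.0, scaling by size factors, no filter, a pseudocount of 0.1, each library left out in turn, age as a covariate and age as a block were alternatives. The edgeR fit was tested on simulated data. The members and lists were chosen with earlier results of these data known. Named were all 32 members, of each other list up to 3 called genes with the smallest p, the members called by age, Omp and Neurog1 as label checks, and Eif2ak3, Ddit3 and Atf5. Promoter windows are from RefSeq, and Ero1l was matched as Ero1a.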

Additional observations from a re-analysis of the deposited data

Results flagged for a closer look

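In the 4 progenitor libraries, 3 of the 32 genes had 1 library set apart from the others (Dixon's test at 95%). The measure was the gap to the nearest library as a share of the whole range, so small differences in level can be marked. Chance alone marks about 1 in 20 such groups, and 32 were examined. Xbp1 was highest at P3, with a gap of 0.873 of its range. Sdf2l1 was highest at P9 (0.837) and Os9 at P7 (0.876). The levels of Sdf2l1 in these libraries, in order of age, were 37.9, 38.0, 40.4 and 37.55 TPM.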

How the results depend on the processing

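Of the 480 values from fits of single members under alternatives, 416 kept their side of the threshold, 28 passed it anew, 36 lost it and 0 changed the direction of a called value. Folds that were not called changed sign for Canx on TPM, for P4hb and Ero1l without the P16 mature neuron library, for Os9 without the P2 mature neuron library, and for Ero1l without the P3 progenitor library and in the blocked fit. The number of members called lower in mature neurons moved from 12 to 19 with limma on log2(TPM + 1) and also to 19 on log2(TPM + 0.1), to 17 on unfiltered TPM, and to 15 with age as a covariate, where Creld2, Atf4 and Sec61b were gained; the members called higher stayed at 6 to 8 over all alternatives. Leaving out each library in turn gave 6 to 8 members higher and 9 to 12 lower. Only P7 and P16 pair the populations by age: with these 4 libraries and age as a replicate block, 7 members were higher and 9 lower, and the calls on Hyou1, Edem2, Derl1, Derl2 and Derl3 were lost while that on Sec61b was gained. For age, DESeq2 called 4 members lower, the fit with no filter 1 and the fits leaving out a library 0 to 1. Over all genes, 0 were called by age in edgeR, 647 higher and 853 lower by DESeq2, 315 and 455 with no filter, and leaving out a library gave 0 to 367 higher and 0 to 619 lower, the upper ends without the P7 mature neuron library. DESeq2 called a slope difference for 5 genes higher and 1 lower. The ER stress element was found in 3 members when only the last 150 bases of the window were searched (50 of them after the start), against 9 in the whole window. The cause of these shifts was not tested, apart from the shorter window, which holds fewer positions. Low counts limit Derl3 alone among the members, with 3 to 34 counts per library.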
